A study of Mus musculus with 12 samples.

Results

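Bcl6 and 9 further transcription factor genes tied to T follicular helper (Tfh) cells were followed across 4 sorted populations of CD4+ T cells. The 10 genes, chosen by name with earlier results of these data known, were Bcl6, Prdm1, Maf, Tox, Tox2, Pou2af1, Ascl2, Batf, Tcf7 and Lef1, and each was read from probe sets annotated to that gene alone. Of the 10 genes 9 had such a probe set, 1 for each gene, and 8 passed the filter on low values and were tested, of 19937 genes named on the array and 11240 tested. Tcf7 had no probe set of its own and is not analysed here. Ascl2 stayed at or below the array median on every array and was not tested.

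Levels were read from 12 Affymetrix mouse gene arrays, 3 for each group, as log2 values, so that a difference of 1 is a change of 2-fold. All groups came from the Peyer's patches (gut-associated lymphoid tissue) of IL-21eGFP mice, in which green fluorescent protein (GFP) reports the gene of the cytokine IL-21. Strain, age and treatment are not given in the sources used here. All cells were sorted as CD4+, MHC class II negative and Epcam negative. GFP+ Tfh were GFP+CXCR5+PD1+, GFP- Tfh were GFP-CXCR5+PD1+, and the remaining groups were GFP-CXCR5+PD1- and GFP-CXCR5-PD1-. The groups follow the sample titles. The characteristics of the GFP+ arrays give CXCR5- and PD1-, and the sorting protocol does not list a CXCR5+PD1- gate.

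The defining genes of the gates were checked first. Cxcr5, the receptor gene of the gate, averaged 8.95 ± 0.29 in GFP+ Tfh, 8.21 ± 0.36 in GFP- Tfh, 5.61 ± 0.37 in the CXCR5+PD1- gate and 5.71 ± 0.43 in the CXCR5-PD1- gate (SD, n = 3 each). It lay above the array median, which was 6.34 to 6.45, in both Tfh gates and below it in both PD1- gates, so the CXCR5+ and CXCR5- gates of PD1- cells were not separated by Cxcr5 RNA. Pdcd1, the gene of PD1, averaged 9.02 in GFP+ Tfh, 9.11 in GFP- Tfh, 7.09 in the CXCR5+PD1- gate and 6.87 in the CXCR5-PD1- gate. Il21, which GFP reports, averaged 10.60, 9.96, 6.50 and 6.64 in the same order. Every GFP+ Tfh array lay above every GFP- Tfh array for Il21, as for 8.74% of all genes in either direction. By these levels Il21 RNA was high in both Tfh gates, and limma did not call it between them. T cell genes averaged 4.26 to 4.70 above the array median on all 12 arrays. B cell genes averaged -0.91 to -0.63 relative to it, and Ms4a1, Ebf1, Cr2, Fcer2a and Blnk, 5 of the 11 measured B cell genes, were above it on no array. The 8 regulatory T cell genes averaged 1.43 to 1.74 above the array median on the GFP+ Tfh arrays and 2.22 to 2.43 on the GFP- Tfh arrays. On CXCR5+PD1- arrays they averaged 1.53 to 1.90 and on CXCR5-PD1- arrays 1.63 to 2.10. Of them Il2ra alone was called between the Tfh gates by limma, lower in GFP+ Tfh, where 0.0445% of all tested genes were called. Against each PD1- gate Ikzf2 and Ctla4 were called higher in both Tfh gates, and Il2ra lower in GFP+ Tfh. Foxp3 averaged 7.03 in GFP+ Tfh, 7.66 in GFP- Tfh, 7.68 in the CXCR5+PD1- gate and 7.95 in the CXCR5-PD1- gate. It was called lower only in GFP+ Tfh over CXCR5-PD1- cells. In these comparisons 3.75% to 6.2% of all tested genes were called. The part of these genes in the results below was not tested. Replicate 3 of each group differed from replicates 1 and 2 in sex, with Xist high only in replicate 3. The 3 GFP+ arrays deviated more from their group mean (0.287 to 0.405, root mean square over genes) than the other 9 arrays (0.163 to 0.204). No label says that replicates are separate animals; p-values therefore reflect only how these samples spread, which may be technical, and 3 arrays per group limit the precision.

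Tfh cells help B cells in germinal centres, and Bcl6, a zinc finger repressor, is the factor that defines them. Bcl6 and Blimp-1, the product of Prdm1, repress each other: Blimp-1 opposes the Tfh fate. Maf and Batf act upstream of the Tfh cytokines, Tox and Tox2 are HMG-box factors, OBF-1 from Pou2af1 is a coactivator of octamer-binding factors, Ascl2 is a basic helix-loop-helix factor, and Tcf1 (from Tcf7) and Lef1 are HMG-box factors of the Wnt pathway that are high in naive T cells and take part in early Tfh formation. Peyer's patches hold germinal centres without immunisation, since gut microbes and food antigens keep them active.

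The promoters of Bcl6, Prdm1 and Lef1 are shown because these genes stand for the 3 patterns described below: high in the Tfh gates, near background everywhere, and low in the Tfh gates. Sequences are from RefSeq on GRCm38.p6 and run 5′ to 3′ on the gene's strand, from 250 bases before to 50 after an annotated start; capitals mark matches to the motif named. For Bcl6 the motif is TTCNNNGAA, the shared letters of the sites of STAT factors and of Bcl6 itself. Window 1 is chr16:23988803-23989102 on the minus strand, with 1 match, 118 bases before the start. Window 2, of another annotated start, is chr16:23981234-23981533 on the minus strand, with 3 matches, at 168, 122 and 88 bases before the start.
Bcl6 window 1: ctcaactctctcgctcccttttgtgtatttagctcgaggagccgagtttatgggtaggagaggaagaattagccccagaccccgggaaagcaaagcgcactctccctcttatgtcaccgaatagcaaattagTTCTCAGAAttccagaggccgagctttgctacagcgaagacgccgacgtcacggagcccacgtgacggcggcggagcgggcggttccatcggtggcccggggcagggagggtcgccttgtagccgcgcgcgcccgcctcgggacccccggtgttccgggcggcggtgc
Bcl6 window 2: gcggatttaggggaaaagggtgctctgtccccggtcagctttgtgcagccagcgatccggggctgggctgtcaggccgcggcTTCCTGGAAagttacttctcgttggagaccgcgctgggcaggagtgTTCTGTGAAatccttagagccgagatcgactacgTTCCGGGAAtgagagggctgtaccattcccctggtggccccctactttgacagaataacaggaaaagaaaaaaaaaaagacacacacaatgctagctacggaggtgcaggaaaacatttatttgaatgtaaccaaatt

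At least 1 match to TTCNNNGAA occurred in 8.3% of the 32851 mouse promoter windows, and 3 or more in 0.0335%, which is 11 windows including the second window of Bcl6. For Prdm1 the capitals mark TGANTCA, the AP-1 type motif that Batf binds with Jun factors, which 7.81% of windows held on either strand. The window is chr10:44458699-44458998 on the minus strand, and the match lies 48 bases before the start. For Lef1 they mark TCAAAG, the TCF and LEF type motif CTTTGA read on the other strand. That window, chr3:131156044-131156343 on the plus strand, is 1 of 4 annotated for Lef1 and is shown because the other 3 held no match; it held 2 matches, as did 1.73% of windows when those with more are counted in. Both strands were searched, and a match is a description of letters, not of binding.
Prdm1: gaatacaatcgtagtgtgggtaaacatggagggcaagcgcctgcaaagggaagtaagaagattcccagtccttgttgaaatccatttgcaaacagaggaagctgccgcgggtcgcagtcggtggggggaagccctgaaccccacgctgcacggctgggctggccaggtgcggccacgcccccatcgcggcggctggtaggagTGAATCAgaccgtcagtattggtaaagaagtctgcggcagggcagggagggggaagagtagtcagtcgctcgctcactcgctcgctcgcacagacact
Lef1 window 4: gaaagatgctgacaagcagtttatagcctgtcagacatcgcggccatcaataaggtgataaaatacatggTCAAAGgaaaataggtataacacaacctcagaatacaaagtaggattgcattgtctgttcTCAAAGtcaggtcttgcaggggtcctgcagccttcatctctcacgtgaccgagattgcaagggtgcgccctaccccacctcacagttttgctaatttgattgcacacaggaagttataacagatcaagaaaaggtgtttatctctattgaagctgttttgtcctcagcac

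Bcl6 was higher in both Tfh gates than in both PD1- gates. Its log2 level was 10.002, 9.727 and 10.122 in GFP+ Tfh, 9.668, 9.970 and 9.426 in GFP- Tfh, 8.288, 8.113 and 8.103 in the CXCR5+PD1- gate and 8.174, 8.383 and 8.326 in the CXCR5-PD1- gate. All 6 Tfh arrays lay more than 1 log2 unit above all 6 PD1- arrays, and within each pair of gates the arrays overlapped. Against CXCR5-PD1- cells the difference was 1.66 ± 0.15 (SE) for GFP+ Tfh, a 3.15-fold higher level (95% interval 2.49 to 3.98, limma adjusted p = 8.20e-05), and 1.39 ± 0.15 for GFP- Tfh, or 2.63-fold (2.08 to 3.32, adjusted p = 4.50e-04). Against CXCR5+PD1- cells it was 1.78 ± 0.15 for GFP+ Tfh (adjusted p = 7.26e-05) and 1.52 ± 0.15 for GFP- Tfh (adjusted p = 2.72e-04). In bulk RNA fewer cells of a type and less RNA per cell cannot be told apart, for Bcl6 and for every gene that follows. GFP+ over GFP- Tfh differed by 0.26 ± 0.15 (adjusted p = 0.735), with an interval of -0.08 to 0.60 and values of 0.05 (replicates 1 and 2 alone) to 0.40 (without GFP- Tfh replicate 2) over the alternatives. CXCR5+PD1- over CXCR5-PD1- differed by -0.13 ± 0.15 (adjusted p = 1), with an interval of -0.46 to 0.21. With only replicates 1 and 2 of every group, which are of 1 sex, the difference of GFP+ Tfh over CXCR5-PD1- was 1.59.

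**Figure D1:**
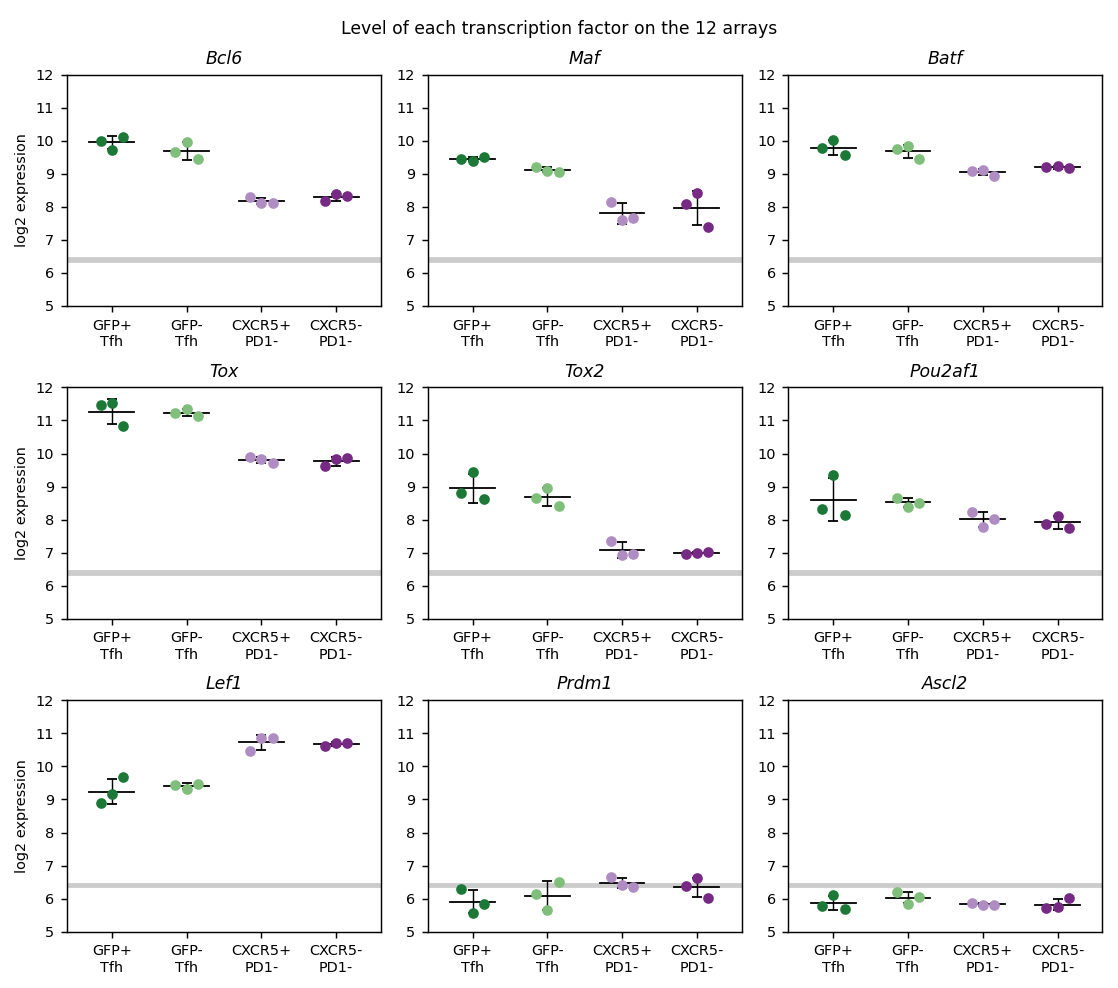
Log2 expression (vertical axis) of the 9 measured factors on the 12 arrays by sorted group; points are replicates 1 to 3 from left to right, bars the mean and SD, and the grey band the range of the array medians (6.34 to 6.45). Bcl6, Maf, Batf, Tox and Tox2 stand higher in the Tfh gates, Lef1 lower, and Prdm1 and Ascl2 lie in or near the grey band in all 4 groups.

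Over the 8 tested factors, 5 were higher and 1 lower in GFP+ Tfh than in CXCR5-PD1- cells by limma at an adjusted p of 0.05, where 6.2% of all tested genes were called in either direction. In GFP- Tfh over CXCR5-PD1- cells 4 were higher and 1 lower, against a background of 3.82%. In GFP+ Tfh over CXCR5+PD1- cells 5 were higher and 1 lower, against 5.89%, and in GFP- Tfh over CXCR5+PD1- cells again 5 and 1, against 3.75%. The factors higher in these comparisons were Bcl6, Maf, Tox and Tox2 in all 4 and Batf in 3, and the lower one was Lef1 in all 4. Median differences of the 8 were 1.08, 0.87, 1.11 and 0.98 in the order of these comparisons, beside medians between -0.03 and 0.00 for all genes. These 4 comparisons share arrays and are not independent.

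Counted without a model, the arrays of the 2 groups did not overlap for 7 of the 8 factors in each of these 4 comparisons, 6 higher and 1 lower in 3 of them and 5 higher and 2 lower in GFP+ Tfh over CXCR5+PD1- cells. Over all genes this held for 18.8% in GFP+ Tfh over CXCR5-PD1-, 21.6% in GFP- Tfh over CXCR5-PD1-, 19.3% in GFP+ Tfh over CXCR5+PD1- and 24.6% in GFP- Tfh over CXCR5+PD1-. Prdm1 was the factor whose arrays separated without a limma call in GFP+ Tfh over CXCR5+PD1-, and Pou2af1 was so in the other 3, joined by Batf in GFP- Tfh over CXCR5-PD1-.

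**Figure D2:**
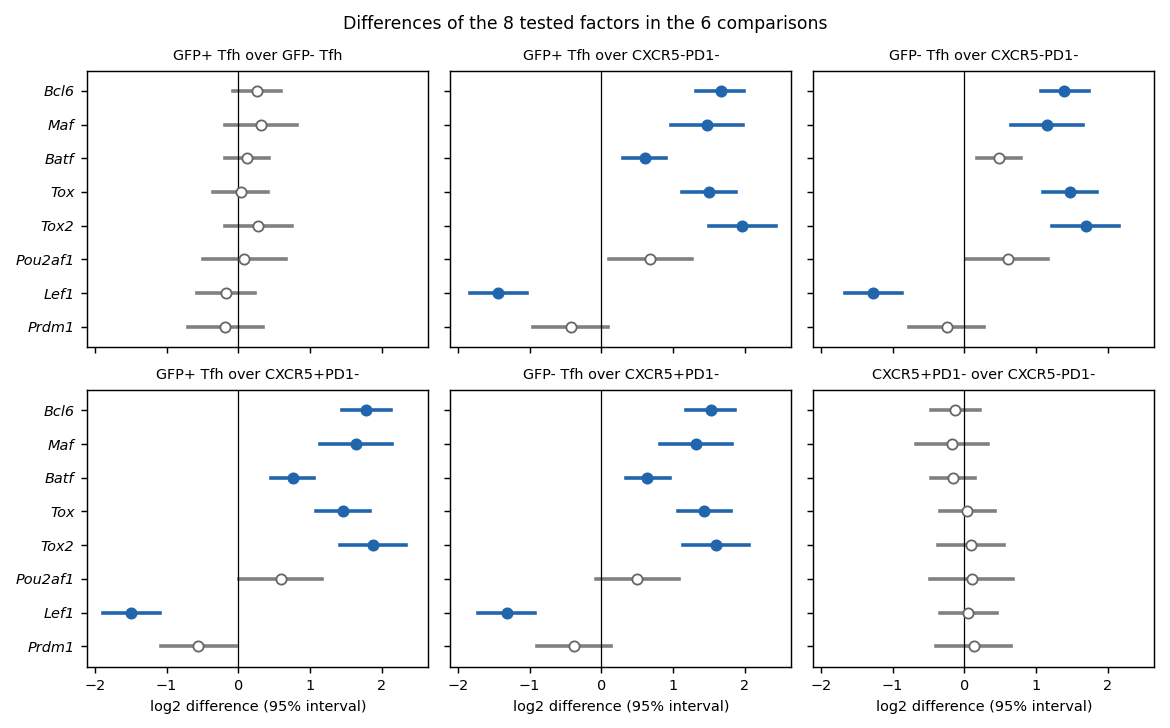
Log2 difference, with its 95% interval, of each of the 8 tested factors in the 6 comparisons; filled points passed limma's adjusted p of 0.05 over all 11240 genes and open points did not. The 2 panels that compare GFP+ with GFP- Tfh and CXCR5+PD1- with CXCR5-PD1- cells hold no filled point, and in the other 4 Tox2 lies between 1.60 and 1.96.

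Maf, a bZIP factor that acts on Il21 and Il4 and on Cxcr5, followed Bcl6. It stood at 9.44, 9.38 and 9.50 in GFP+ Tfh, 9.21, 9.08 and 9.06 in GFP- Tfh, 8.15, 7.59 and 7.65 in the CXCR5+PD1- gate and 8.08, 8.43 and 7.40 in the CXCR5-PD1- gate. The Tfh arrays were close together and above every PD1- array, while the CXCR5-PD1- arrays spread over 1 log2 unit. Maf was 1.47 ± 0.23 higher in GFP+ Tfh than in CXCR5-PD1- cells (limma adjusted p = 0.00252), and 1.15 ± 0.23 higher in GFP- Tfh (adjusted p = 0.0149). The second of these calls was lost without GFP- Tfh replicate 1 (1.10, adjusted p = 0.0636), without GFP- Tfh replicate 2 (1.17, adjusted p = 0.0559) and with replicates 1 and 2 alone (0.89, adjusted p = 0.0833). Against CXCR5+PD1- cells the differences were 1.64 in GFP+ Tfh (adjusted p = 0.00124) and 1.32 in GFP- Tfh (adjusted p = 0.00685). Maf was the 1 factor of the 8 for which all GFP+ Tfh arrays lay above all GFP- Tfh arrays, which was so, in either direction, for 8.74% of all genes. That difference was 0.32 ± 0.23 (adjusted p = 0.776), with an interval of -0.18 to 0.82.

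Batf, the AP-1 family factor that pairs with Jun and IRF proteins and is needed for Bcl6 and Maf in Tfh formation in mice, moved less. It stood at 9.78, 10.03 and 9.57 in GFP+ Tfh, 9.74, 9.83 and 9.46 in GFP- Tfh, 9.07, 9.11 and 8.93 in the CXCR5+PD1- gate and 9.20, 9.23 and 9.16 in the CXCR5-PD1- gate. Every Tfh array was above every PD1- array. The differences were 0.60 ± 0.14 in GFP+ Tfh over CXCR5-PD1- cells (limma adjusted p = 0.0262), 0.76 ± 0.14 in GFP+ Tfh over CXCR5+PD1- cells (adjusted p = 0.00805) and 0.64 ± 0.14 in GFP- Tfh over CXCR5+PD1- cells (adjusted p = 0.025). In GFP- Tfh over CXCR5-PD1- cells Batf was not called, at 0.48 ± 0.14 (adjusted p = 0.0915), though with the replicate block it was (adjusted p = 0.0427). This does not show that the Tfh gates differ, and their own difference was 0.12 ± 0.14 (adjusted p = 0.877). The call against CXCR5-PD1- cells was lost without GFP+ Tfh replicate 2, at a difference of 0.48 (adjusted p = 0.0784). It was also lost without CXCR5-PD1- replicate 1, 2 or 3, at adjusted p of 0.075, 0.0706 or 0.0961, though the difference hardly moved, at 0.60, 0.62 or 0.58. Against CXCR5+PD1- cells, GFP- Tfh lost the call without GFP- Tfh replicate 1 (adjusted p = 0.106) or 2 (adjusted p = 0.121) and without CXCR5+PD1- replicate 1, 2 or 3 (adjusted p = 0.0755, 0.071 or 0.121), while the difference kept to 0.56 to 0.75 over all alternatives. CXCR5+PD1- arrays were all below CXCR5-PD1- arrays, by -0.16 ± 0.14 (adjusted p = 1).

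Tox and Tox2, related HMG-box factors that are both expressed by Tfh cells, rose in the Tfh gates. Tox stood at 11.46, 11.52 and 10.82 in GFP+ Tfh, 11.23, 11.34 and 11.14 in GFP- Tfh, 9.88, 9.83 and 9.70 in the CXCR5+PD1- gate and 9.61, 9.82 and 9.86 in the CXCR5-PD1- gate. Replicate 3 of GFP+ Tfh was the lowest of the 6 Tfh arrays and still above all PD1- arrays. Tox was 1.50 ± 0.17 higher in GFP+ Tfh (limma adjusted p = 3.27e-04) and 1.47 ± 0.17 higher in GFP- Tfh (adjusted p = 6.67e-04) than in CXCR5-PD1- cells. The gap to CXCR5+PD1- cells was 1.46 and 1.43 in GFP+ and GFP- Tfh, and GFP+ over GFP- Tfh was 0.03 ± 0.17, with an interval of -0.35 to 0.41.

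Tox2 is known in mice to act with Bcl6 on the accessibility of Tfh genes. Its levels were 8.801, 9.448 and 8.615 in GFP+ Tfh, 8.657, 8.963 and 8.421 in GFP- Tfh, 7.352, 6.929 and 6.969 in the CXCR5+PD1- gate and 6.959, 7.002 and 7.016 in the CXCR5-PD1- gate. Replicate 2 was the highest within both Tfh gates. Against CXCR5-PD1- cells Tox2 rose by 1.96 ± 0.21 in GFP+ Tfh, or 3.90-fold (95% interval 2.83 to 5.38, limma adjusted p = 1.91e-04), and by 1.69 ± 0.21 in GFP- Tfh (adjusted p = 9.42e-04). These were the largest differences of the 8 factors in those 2 comparisons. GFP+ over GFP- Tfh was 0.27 ± 0.21, with an interval of -0.19 to 0.74; it was 0.03 without GFP+ Tfh replicate 2 and 0.60 with 1 weight per array, and was called in neither.

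Pou2af1, whose product OBF-1 is best known as a B cell coactivator and is also used by Tfh cells, passed no test. Its levels were 8.32, 9.34 and 8.14 in GFP+ Tfh, 8.66, 8.38 and 8.51 in GFP- Tfh, 8.24, 7.78 and 8.02 in the CXCR5+PD1- gate and 7.88, 8.12 and 7.75 in the CXCR5-PD1- gate. Replicate 2 of GFP+ Tfh stood above every other array, and the other GFP+ arrays lay beside the highest PD1- arrays. The difference was 0.68 ± 0.26 in GFP+ Tfh (limma adjusted p = 0.178) and 0.60 ± 0.26 in GFP- Tfh (adjusted p = 0.344) over CXCR5-PD1- cells. With 1 weight per array it was called in GFP+ Tfh, at 1.20 over CXCR5-PD1- cells (adjusted p = 0.00586) and 1.12 over CXCR5+PD1- cells (adjusted p = 0.00668); that fit weighted GFP+ Tfh replicate 2 at 1.87, against 0.266 and 0.226 for the other GFP+ arrays. Without GFP+ Tfh replicate 2 the differences were 0.31 (adjusted p = 0.366) and 0.22 (adjusted p = 0.569). The 11 measured B cell genes averaged -0.80 relative to the array median on GFP+ Tfh replicate 2, within the range of the GFP+ arrays (-0.85 to -0.63). Of the 4 tested B cell genes Pax5 alone was called, higher by 0.47 ± 0.10 in GFP+ Tfh over CXCR5-PD1- cells at a level of 6.57 (adjusted p = 0.0171). In that comparison 6.2% of all tested genes were called.

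Lef1 ran opposite to Bcl6. It stood at 8.89, 9.16 and 9.67 in GFP+ Tfh, 9.43, 9.32 and 9.47 in GFP- Tfh, 10.47, 10.87 and 10.85 in the CXCR5+PD1- gate and 10.61, 10.70 and 10.72 in the CXCR5-PD1- gate. All Tfh arrays lay below all PD1- arrays, and Lef1 remained well above the array median in each gate. It fell by 1.44 ± 0.18 in GFP+ Tfh against CXCR5-PD1- cells, a level 2.71-fold lower (limma adjusted p = 6.33e-04), and by 1.27 ± 0.18 in GFP- Tfh, or 2.41-fold lower (adjusted p = 0.0021). Against CXCR5+PD1- cells the differences were -1.49 ± 0.18 (adjusted p = 5.04e-04) and -1.32 ± 0.18 (adjusted p = 0.00168) in GFP+ and GFP- Tfh. Between the Tfh gates the difference was -0.17 ± 0.18, with an interval of -0.57 to 0.23.

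Prdm1, the gene of the repressor opposing Bcl6, was near the array median throughout. Its levels were 6.29, 5.58 and 5.85 in GFP+ Tfh, 6.13, 5.65 and 6.51 in GFP- Tfh, 6.64, 6.42 and 6.36 in the CXCR5+PD1- gate and 6.39, 6.61 and 6.03 in the CXCR5-PD1- gate. Only 3 of the 12 arrays lay above their median, where low signals are compressed and differences can be understated. The 3 GFP+ Tfh arrays were below the 3 CXCR5+PD1- arrays, by -0.56 ± 0.24 (limma adjusted p = 0.228), and the other groups overlapped. With 1 weight per array that difference was -0.78 (adjusted p = 0.0317). Against CXCR5-PD1- cells the difference was -0.43 ± 0.24 in GFP+ Tfh, with an interval of -0.95 to 0.09, and -0.25 ± 0.24 in GFP- Tfh, with an interval of -0.77 to 0.27. Blimp-1 is high in plasma cells, and the 9 measured genes of germinal centre B and plasma cells averaged -0.43 to -0.25 relative to the median on the GFP+ Tfh arrays and -0.46 to -0.39 on the other 9. Of these 9 genes Jchain, Sdc1 and Rgs13 were above the median on no array, while Xbp1, which T cells also express, averaged 1.41 to 1.59 above it in the 4 groups and Mzb1 lay close to it; 0 of the 4 tested were called in any comparison.

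Ascl2, reported in mice to raise Cxcr5 ahead of Bcl6, gave no signal above the array median. Its mean was 5.86 ± 0.21 in GFP+ Tfh, 6.03 ± 0.17 in GFP- Tfh, 5.83 ± 0.05 in the CXCR5+PD1- gate and 5.82 ± 0.16 in the CXCR5-PD1- gate (SD, n = 3 each). These values do not show that the gene was off, since signals in this range are compressed.

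Between the 2 Tfh gates 0 of the 8 tested factors were called by limma, and 0 had an unadjusted p under 0.05. Over all genes 5 were called, which is 0.0445%, and 828 had an unadjusted p under 0.05. The median difference of the 8 was 0.10, against -0.02 over all genes. The widest interval was that of Pou2af1, at 0.08 with bounds of -0.49 and 0.66, that is 0.711-fold to 1.58-fold. CXCR5+PD1- over CXCR5-PD1- cells gave 0 calls among the 8 and 0% of all genes by limma, with 137 genes and 0 of the 8 at an unadjusted p under 0.05. There the arrays did not overlap for 1 of the 8, Batf, and for 8.74% of all genes. In level, each of the 6 called factors thus had the Tfh gates at one end and the PD1- gates at the other, with neighbours inside each pair not separated by the test.

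Close relatives of the factors were set beside them. Of 26 listed genes of the same families 22 were measured and 16 tested, and between each Tfh gate and each PD1- gate at most 1 was called, which is close to the share of all genes called (3.75% to 6.2%). That gene was Mafg, a small Maf protein without an activation domain, higher by 0.44 ± 0.11 in GFP+ Tfh over CXCR5-PD1- cells (limma adjusted p = 0.0427) and by 0.55 ± 0.11 over CXCR5+PD1- cells (adjusted p = 0.0144). Median differences of the relatives lay between -0.05 and -0.01 in these 4 comparisons. Tox4, the ubiquitous relative of Tox and Tox2, averaged 9.82 in GFP+ Tfh, 10.02 in GFP- Tfh, 9.91 in the CXCR5+PD1- gate and 9.81 in the CXCR5-PD1- gate, and was 0.02 ± 0.27 apart in GFP+ Tfh over CXCR5-PD1- cells (adjusted p = 0.988). Tox3 and Bcl6b were above the array median on no array. Batf3, the factor of cross-presenting dendritic cells, differed by -0.10 ± 0.13 in GFP+ Tfh over CXCR5-PD1- cells (adjusted p = 0.776). Whether a factor differed from its relatives was not tested.

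**Figure D3:**
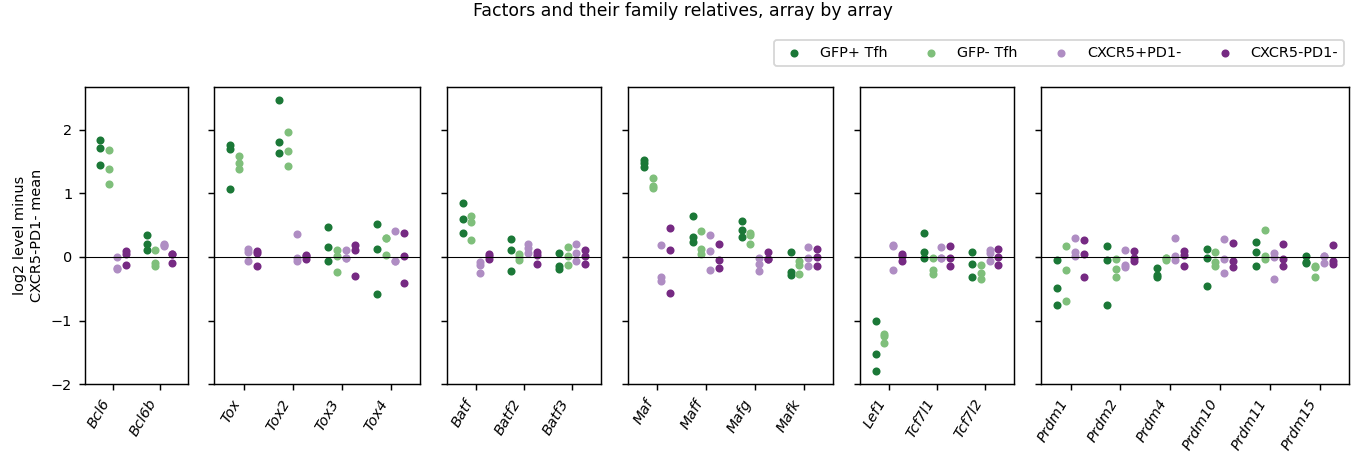
Log2 level on each array minus the gene's mean in CXCR5-PD1- cells (vertical axis) for 7 of the factors and relatives of their families (horizontal axis), with the 4 groups from left to right at each gene. Bcl6, Tox, Tox2, Batf and Maf stand above 0 in the Tfh gates and Lef1 below, and of the relatives shown Mafg alone was called; the Tfh points of Maff also lie above 0, at 0.39 in GFP+ Tfh (adjusted p = 0.254).

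Genes that act with the factors at DNA were fixed as a list of 14, of which 13 were measured and 12 tested. Nfatc1 and Nfatc2, the calcium-dependent NFAT factors, were higher and Bach2, a repressor of the Maf and Jun binding sites, lower in each Tfh gate against each PD1- gate. Of all tested genes, limma called 3.75% to 6.2% in these comparisons. The same genes are also in the list of further factors below and are counted there again. In GFP+ Tfh against CXCR5-PD1- cells Nfatc1 rose by 1.39 ± 0.16 (limma adjusted p = 2.82e-04) and Bach2 fell by 1.78 ± 0.19 (adjusted p = 1.62e-04). Bach2 read 6.13, 6.29 and 6.29 in GFP+ Tfh, 6.36, 6.73 and 6.65 in GFP- Tfh, 7.56, 7.49 and 8.05 in the CXCR5+PD1- gate and 7.71, 8.02 and 8.31 in the CXCR5-PD1- gate. All GFP+ Tfh arrays lay below all GFP- Tfh arrays, a difference of -0.35 ± 0.19 (adjusted p = 0.697), and below their array median. Such separation of the Tfh gates, in either direction, held for 8.74% of all genes. Irf4, the partner of Batf, differed by 0.33 ± 0.24 in GFP+ Tfh over CXCR5-PD1- cells (adjusted p = 0.528), and Pou2f2, the octamer factor that OBF-1 binds, by 0.24 ± 0.15 (adjusted p = 0.433).

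Further factors with a reported role in Tfh formation or its restraint numbered 34, of which 31 were measured and tested. Between GFP+ Tfh and CXCR5-PD1- cells 7 were higher and 4 lower, and between GFP- Tfh and CXCR5-PD1- cells 6 and 3, where 6.2% and 3.82% of all tested genes were called. Against CXCR5+PD1- cells 8 were higher and 4 lower in GFP+ Tfh, and 7 and 2 in GFP- Tfh, beside 5.89% and 3.75% of all genes. Hif1a, Ikzf3, Nfatc1, Bhlhe40, Nfatc2 and Egr2 were higher and Bach2 and Foxp1 lower in all 4 comparisons. Medians of the list lay between -0.04 and 0.02, near those of all genes. Ikzf3, the Ikaros family factor Aiolos, was 1.59 ± 0.17 higher in GFP+ Tfh than in CXCR5-PD1- cells (limma adjusted p = 1.69e-04). Its levels of 10.57, 10.18 and 10.68 in GFP+ Tfh were all above those of GFP- Tfh, which lay between 9.80 and 10.09, by 0.52 ± 0.17 (adjusted p = 0.498). Arrays of the 2 Tfh gates did not overlap, in either direction, for 8.74% of all genes. Foxp1, a brake on Tfh formation in mice, fell by 0.61 ± 0.11 in GFP+ Tfh (adjusted p = 0.00773) and fell by 0.77 ± 0.11 in GFP- Tfh (adjusted p = 0.00237) against CXCR5-PD1- cells. Stat3, which carries signals of IL-6 and IL-21 to Bcl6, was -0.59 ± 0.21 apart in GFP+ Tfh over CXCR5-PD1- cells (adjusted p = 0.133) and -0.04 ± 0.21 in GFP- Tfh. In GFP+ over GFP- Tfh and in CXCR5+PD1- over CXCR5-PD1- cells 0 of the 31 were called.

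**Figure D4:**
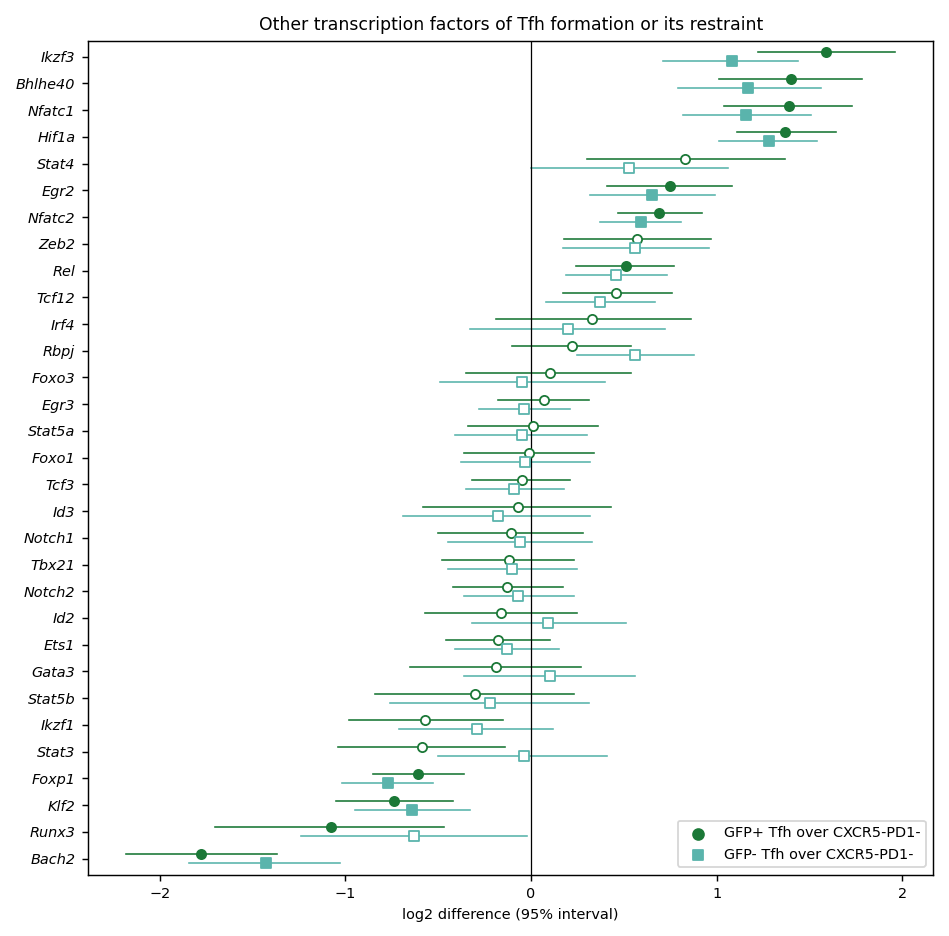
Log2 difference with its 95% interval (horizontal axis) of the 31 further factors (the Notch receptors among them) in GFP+ Tfh (circles) and GFP- Tfh (squares) over CXCR5-PD1- cells, ordered by the difference in GFP+ Tfh; filled symbols passed limma's adjusted p of 0.05. Ikzf3 at 1.59 and Bach2 at -1.78 are the ends of the range, and most of the list lies near 0 with open symbols.

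Targets of the factors were read from lists of genes reported to depend on them in T cells; some of these genes also mark the sort. Of 14 tested genes reported as repressed by Bcl6, 6 were lower and 1 higher in GFP+ Tfh than in CXCR5-PD1- cells, with a median of -0.44. In GFP- Tfh 5 were lower and 1 higher against the same cells, with a median of -0.26. Of all tested genes, limma called 6.2% and 3.82% in these comparisons, in either direction. S1pr1, the receptor by which T cells leave lymphoid tissue, stood at 7.94, 7.55 and 8.33 in GFP+ Tfh, 8.23, 8.51 and 8.74 in GFP- Tfh, 10.83, 11.17 and 11.41 in the CXCR5+PD1- gate and 10.85, 11.08 and 11.52 in the CXCR5-PD1- gate. Against CXCR5-PD1- cells it fell by 3.21 ± 0.24 in GFP+ Tfh (limma adjusted p = 2.61e-05) and fell by 2.66 ± 0.24 in GFP- Tfh (adjusted p = 1.15e-04). Ccr7, the T zone homing receptor, Il7r, the interleukin 7 receptor, and Selplg, the selectin ligand PSGL-1, were lower in all 4 comparisons, and Klf2, which drives S1pr1, in 3. Among called genes the exceptions in direction were Ccr6 and Rora, both against CXCR5-PD1- cells. Ccr6 was 0.89 ± 0.24 higher in GFP+ Tfh (adjusted p = 0.0489), and Rora 0.78 ± 0.19 higher in GFP- Tfh (adjusted p = 0.0432). Without a call, Ccr6 also averaged higher in GFP- Tfh (7.38 against 6.60) and Rora in GFP+ Tfh (8.59 against 8.15). Cxcr3, Gata3 and Id2 averaged slightly higher in GFP- Tfh than in CXCR5-PD1- cells and were not called.

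Of 10 tested genes reported to depend on Maf or BATF, 6 were higher in each Tfh gate than in each PD1- gate, with list medians of 1.15 to 1.21. They were Cxcr5, Bcl6, Icos, Il21, Ctla4 and Il4. Of all tested genes, limma called 3.75% to 6.2% in these comparisons, in either direction. Cxcr5 marks the sort, Il21 is the gene that GFP reports, and Bcl6 is itself among the factors, so their calls are not separate results. Il21 was 3.96 ± 0.56 higher in GFP+ Tfh (limma adjusted p = 0.00141) and 3.32 ± 0.56 higher in GFP- Tfh (adjusted p = 0.00557) than in CXCR5-PD1- cells. Il4 read 9.90, 10.36 and 6.84 in GFP+ Tfh and 10.41, 10.18 and 9.69 in GFP- Tfh, so replicate 3 of GFP+ Tfh stood apart. Of 9 tested genes reported to depend on Tcf1 and Lef1 in Tfh formation, 5 were higher and 1 lower in GFP+ Tfh than in CXCR5-PD1- cells. In GFP- Tfh 5 were higher and 0 lower, where 6.2% and 3.82% of all tested genes were called in turn. Cxcr5, Bcl6 and Icos were among the higher genes in both gates and were already counted for Maf or BATF. The list is not split by the direction reported, so its counts have no single expected direction. Il6st, the signalling chain of the interleukin 6 receptor, was 0.73 ± 0.13 higher in GFP+ Tfh (adjusted p = 0.00611). Il6ra, the ligand-binding chain of that receptor, differed by -0.43 ± 0.14 (adjusted p = 0.118). It was lower in all 3 GFP+ Tfh arrays than in all 3 CXCR5-PD1- arrays, where 18.8% of all genes did not overlap in either direction. The gene called lower was Il2ra, a chain of the receptor for IL-2, whose signal represses Bcl6 through Stat5 in mice. It also fell by 2.72 ± 0.28 in GFP+ against GFP- Tfh (adjusted p = 0.00451).

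Bcl6 was last compared with all other tested genes by its levels over the 12 arrays, as the root mean square difference after centring each gene on its own mean. Levels were not scaled, so the size of a gene's changes counts as well as their shape. The 5 nearest were Tbc1d4 at 0.168, Hif1a at 0.215, Sec14l1 at 0.216, Osbpl3 at 0.216 and Cd44 at 0.216, where the median of all genes was 0.848. Tbc1d4, a Rab GTPase activating protein, averaged 8.54 in GFP+ Tfh, 8.48 in GFP- Tfh, 6.87 in the CXCR5+PD1- gate and 6.89 in the CXCR5-PD1- gate. Among the factors themselves Tox ranked 17 at 0.271, Maf 18 at 0.282 and Tox2 23 at 0.296, and Batf 225 at 0.523. Pou2af1 ranked 555 at 0.639, and Lef1, at 1.51, was among the genes least like Bcl6. These are descriptions over arrays that share 4 groups, with no test. For Prdm1 the nearest gene was Lbr at 0.165, with a median of 0.395 over all genes.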

How the data were processed

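Per the labels' protocols, RNA of sorted cells was made into labelled cDNA and hybridised to Affymetrix mouse gene arrays. The table the authors deposited holds log2 values of 34760 probe sets. RMA and oligo produced it, per the submitters' processing notes, which evens out the arrays and compresses low signals. All 12 columns were mapped to samples, and 0 were left over.

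Gene symbols came from the platform's annotation and were brought up to date through RefSeq (GRCm38.p6): 21640 probe sets had 1 symbol, 1321 several and 11799 none. A gene's probe set with the highest mean was used, and genes above the array median on at least 3 arrays were tested. Differences are contrasts in a single model fitted with limma 3.58.1 (R 4.3.3) to the 12 arrays, with 8 residual degrees of freedom and Benjamini-Hochberg adjustment over 11240 genes; the code was tested on simulated data. The genes named are the 10 factors, the sort markers, up to 6 members of a list with the smallest p in a comparison, and the 5 genes nearest to Bcl6 (for Prdm1, the nearest). Tox3, Tox4, Bcl6b and the markers of other cell types were named after their values were seen. Members and lists were chosen with earlier results of these data known. Samples of the same replicate number deviated together in CXCR5+PD1- over CXCR5-PD1- (correlations 0.21 to 0.353) but not throughout in the other comparisons (-0.0195 to 0.283); what the numbers stand for is unlabelled.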

Additional observations from a re-analysis of the deposited data

How the results depend on the processing

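Each comparison was repeated under 16 alternatives: other filters, probe set rules, moderation, weights, normalisation, groups in the fit, a replicate block, replicates 1 and 2 alone, and each replicate left out. The number of the 8 factors called ranged over 5 to 7 for GFP+ Tfh over CXCR5-PD1-, 4 to 6 for GFP- Tfh over CXCR5-PD1-, 5 to 8 for GFP+ Tfh over CXCR5+PD1-, 5 to 6 for GFP- Tfh over CXCR5+PD1-, and it stayed 0 in the remaining 2. Bcl6, Tox, Tox2 and Lef1 kept their calls and directions in those 4 comparisons under every alternative that tested them. With the replicate block the called factors were 6 in each of the 4, Batf being added in GFP- Tfh over CXCR5-PD1- (0.48), and no other call changed. Batf also lost its call with 1 weight per group (adjusted p = 0.0908) and with only the 2 groups in the fit (adjusted p = 0.136) in GFP+ Tfh over CXCR5-PD1-, both with the difference still at 0.60, with only the 2 groups in GFP+ Tfh over CXCR5+PD1- (still 0.76, adjusted p = 0.0665) and with replicates 1 and 2 alone in GFP- Tfh over CXCR5+PD1- (0.70, adjusted p = 0.0537). With weights it gained one in GFP- Tfh over CXCR5-PD1- (adjusted p = 0.0266 per group and 0.0126 per array), and Pou2af1 gained one in GFP- Tfh over CXCR5-PD1- with only the 2 groups (adjusted p = 0.0401), all by limma. Differences that changed sign were never called. In GFP+ over GFP- Tfh, leaving out replicates gave -0.41 to 0.02 for Prdm1 (0.05 with replicates 1 and 2), -0.10 to 0.25 for Tox, -0.29 to 0.31 for Pou2af1 and -0.38 to 0.00 for Lef1; without a change of sign, all alternatives gave 0.05 to 0.40 for Bcl6, 0.25 to 0.38 for Maf, 0.03 to 0.60 for Tox2 and 0.00 to 0.25 for Batf. In CXCR5+PD1- over CXCR5-PD1- leaving out replicates gave -0.03 to 0.26 for Prdm1, -0.46 to 0.06 for Maf, -0.04 to 0.09 for Tox, -0.04 to 0.17 for Tox2, -0.02 to 0.21 for Pou2af1 and -0.02 to 0.18 for Lef1. The cause was not tested. Signal limits Prdm1 and Ascl2, which lie at the array median or below it.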

Other observations

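Corepressors that bind Bcl6 or Blimp-1 were listed as 20 genes, of which 18 were measured and 17 tested. Ezh2, the methyltransferase of Polycomb repressive complex PRC2, was the 1 called, against 5.89% and 3.75% of all genes in these comparisons, so the count says nothing particular of the corepressors. Ezh2 was higher by 0.96 ± 0.20 in GFP+ Tfh (limma adjusted p = 0.014) and by 0.85 ± 0.20 in GFP- Tfh (adjusted p = 0.0333) than in CXCR5+PD1- cells. It stood at 10.14, 9.99 and 9.52 in GFP+ Tfh, 9.96, 9.83 and 9.55 in GFP- Tfh, 9.15, 8.83 and 8.80 in CXCR5+PD1- cells and 9.52, 9.07 and 9.01 in CXCR5-PD1- cells, so replicate 1 was the highest in all 4 groups. Against CXCR5-PD1- cells it was not called, at 0.69 ± 0.20 in GFP+ Tfh (adjusted p = 0.0646) and 0.58 ± 0.20 in GFP- Tfh (adjusted p = 0.164). Bcor, which binds the BTB domain of Bcl6, differed by -0.01 ± 0.16 in GFP+ Tfh over CXCR5-PD1- cells (adjusted p = 0.98); it was named after its value was seen.

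Of 6 tested genes reported to change when Ascl2 is expressed in T cells, Cxcr5, which also marks the sort, and Il2rb, a chain of the interleukin 2 and 15 receptors, were higher and Ccr7, Il2ra and Selplg lower in GFP+ Tfh than in CXCR5-PD1- cells. In GFP- Tfh the same comparison gave 2 higher and 2 lower, with Il2ra at -0.54 ± 0.28 (limma adjusted p = 0.487). Of all tested genes, 6.2% and 3.82% were called in these comparisons. The list is not split by the direction reported, so a call in it is not a match in direction. Cxcr4 was called in neither, at 0.33 ± 0.11 in GFP+ Tfh (adjusted p = 0.0986) and 0.26 ± 0.11 in GFP- Tfh (adjusted p = 0.292). Against CXCR5+PD1- cells Cxcr4 was called higher in GFP+ Tfh, at 0.42 ± 0.11 (adjusted p = 0.0401). It was not called there in GFP- Tfh, at 0.35 ± 0.11 (adjusted p = 0.12). Whether Ascl2 had a part in these values was not tested. Of other cell types' genes, Lyz2, a lysozyme of myeloid cells, was 1.48 ± 0.38 higher in GFP+ Tfh than in CXCR5+PD1- cells (adjusted p = 0.0447). It was the 1 called of 6 tested myeloid genes, where 5.89% of all tested genes were called. Of 3 tested genes of CD8, NK and gamma delta T cells, 1 was called, Cd8b1. It was lower in GFP- Tfh (6.17) than in CXCR5-PD1- cells (6.99), where 3.82% of all tested genes were called. Of the 10 measured myeloid genes Itgax, Csf1r, Adgre1 and Clec9a lay above the array median on no array, while group means were 2.07 to 2.77 above it for Cst3, 0.84 to 1.29 for Cd68 and 0.91 to 1.52 for Tyrobp; the list averaged -0.42 to -0.01 on GFP+ Tfh arrays, -0.40 to -0.21 on GFP- Tfh, -0.47 to -0.23 on CXCR5+PD1- and -0.51 to -0.06 on CXCR5-PD1- arrays. Their part in the results was not tested.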
